A study of Mus musculus with 4 samples.

Results

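The immunoproteasome and MHC class I genes described here were 10 genes chosen by name: *Psmb8*, *Psmb9*, *Psmb10*, *Psme1*, *Psme2*, *Tap1*, *Tapbp*, *B2m*, *H2-K1* and *H2-D1*. Their rows were taken by gene symbol from both cluster marker tables of a single-cell RNA sequencing experiment. Of the 10 genes, 9 had a row in at least 1 table, among 3488 genes with a row in either. *B2m* had none.

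The study profiled group 2 innate lymphoid cells (ILC2s), a source of IL-5 and IL-13 that needs no antigen receptor, to compare those of the liver and the lung after IL-33. The 4 libraries, PBS lung, PBS liver, rIL-33 lung and rIL-33 liver, stood for a group each and came from wild-type BALB/c mice of 8 weeks, with no altered allele in any group. On each of 5 days the mice were given recombinant IL-33 (0.5 µg) or, as controls, PBS, intraperitoneally, and tissue from 2 to 6 mice was pooled per group. Cells were sorted as lineage-negative CD127+ Thy1+ ST2+, where the lineage antibodies included CD3e and TCRb. The tables pooled all 4, so livers cannot be told from lungs nor rIL-33 from PBS in any value below, no value has a replicate, and no test was made.

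Cells show fragments of their own proteins on MHC class I. The proteasome, a barrel-shaped protease, cuts the proteins; interferons induce a variant of it, the immunoproteasome, in which PSMB8, PSMB9 and PSMB10 replace the standard catalytic subunits PSMB5, PSMB6 and PSMB7. PSME1 and PSME2 form the PA28 activator that caps the barrel, TAP1 with TAP2 pumps the peptides into the endoplasmic reticulum, tapasin (*Tapbp*) holds empty class I molecules at the pump, and a class I heavy chain (*H2-K1* or *H2-D1*) with β2-microglobulin (*B2m*) carries the peptide to the surface. Lymphocytes are known for expressing the immunoproteasome without infection.

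In RefSeq's annotation of GRCm38.p6, the same build as the authors' mm10, all 10 genes are protein-coding. *Tapbp* (chr17:33919478-33929290), *H2-K1* (chr17:33996012-34000619), *Psmb9* (chr17:34182030-34187330), *Tap1* (chr17:34187556-34197225), *Psmb8* (chr17:34198195-34201454) and *H2-D1* (chr17:35263094-35267497) lie in the MHC region of chromosome 17. *Psmb9* and *Tap1* lie head to head with 225 bases between their starts, and *Psmb8* starts after a gap of 969 bases beyond *Tap1*. The others lie elsewhere, *Psme1* (chr14:55578494-55581527) close to *Psme2* (chr14:55587440-55591101), with *B2m* at chr2:122147687-122153082 and *Psmb10* at chr8:105935728-105938392.

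The following stretches upstream of 5 members, 5′ to 3′ on the strand of each gene from RefSeq's promoter windows, are shown because they hold the letters of known interferon and NF-κB response motifs or lie between the paired genes. Capitals mark the motif matches.
H2-K1: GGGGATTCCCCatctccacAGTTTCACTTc
H2-D1: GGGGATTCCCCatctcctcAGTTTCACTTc
B2m: catGAAACTGAAAatGGGAAAGTCCCtttg
Tap1: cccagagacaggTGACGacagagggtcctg
Psmb8: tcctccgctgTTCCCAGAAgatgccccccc

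The *H2-K1* stretch (chr17:34000429-34000458, minus strand, bases -111 to -82 from the start used, inside the gene's annotated span) and the *H2-D1* stretch (chr17:35262923-35262952, plus strand, bases -171 to -142) were identical at 29 of 30 bases. Both held an NF-κB motif (GGGANNNNCC, found on either strand in 20.7% of 32851 mouse promoter windows of 300 bases) and an interferon-stimulated response element core (AGTTTCNNTT, in 1.72%). The *B2m* stretch (chr2:122147545-122147574, plus strand, bases -142 to -113) held the same NF-κB motif beside a repeat form of the response element (GAAANNGAAA, in 3.44%). This repeat was also in the *Psme1* window. The *Psmb8* stretch (chr17:34198088-34198117, plus strand, bases -107 to -78) held a palindromic interferon-gamma activated site (TTCNNNGAA, in 8.30% of windows), the sole one among the 10 genes. The *Tap1* stretch (chr17:34187458-34187487, plus strand, bases -98 to -69) lies between *Tap1* and *Psmb9*, and its cyclic AMP response element core (TGACG, in 20.8% of windows) is in the window of both genes. That core was in 6 of the 10 members' windows, and so were the Y box letters ATTGG, which 37.4% of all windows held. These are matches of letters in windows from 250 bases before to 50 bases after a start. Binding was not analysed here for these windows.

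Each row of a table, called a listing here, is 1 gene in 1 cluster whose average was above that of all other cells. It carries 2 shares, of the cluster's cells and of all other cells, in which the gene was found (a value above 0). One table compared 21 named cell types, with 1679 genes in 4422 listings, and is called the cell type table. The other compared 10 subclusters, numbered from 0, of the cells kept as ILC2s, with 2629 genes in 3745 listings. The tables give neither the number of cells nor the depth, so shares are printed without an interval. Cluster sizes, solved from the shares, ranged from 27.3% ± 0.0274 (SE of the fit) of ILC2s in subcluster 0 to 0.668% ± 0.0164 in subcluster 8 and 0.611% ± 0.0206 in subcluster 9. As a check of the label, the type named ILC2 listed 9 of 11 ILC2 markers, all but *Il7r* and *Thy1*, both of which the sort required.

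In the ILC2 subcluster table, 9 of the 10 members were listed, in 28 listings, and these fell in 6 of the 10 subclusters. Subcluster 8 listed 8 members, all but *Psme2* and *B2m*, while it listed 9.62% of all genes of the table. Subcluster 1 listed 5 members (*Psmb8*, *Psmb9*, *Tap1*, *H2-K1* and *H2-D1*), against 13.8% of all genes. Subcluster 4 listed 4 (*Psmb8*, *Psmb9*, *Psme1* and *Psme2*), against 30.5%. Subcluster 6 listed 4 (*Psmb8*, *Psmb9*, *H2-K1* and *H2-D1*), against 7.23%, and subcluster 2 listed 3 (*Psmb8*, *Psmb9* and *H2-K1*), against 4.98%. Subcluster 5 listed 4 (*Tap1*, *Tapbp*, *H2-K1* and *H2-D1*), against 38.0% of all genes, a share close to that of the members, and in each of the 4 the share of cells inside was the lower one. Their averages inside were nonetheless the higher ones. Subclusters 0, 3, 7 and 9 listed no member, while they listed 11.4%, 9.01%, 10.3% and 7.57% of all genes. The cells that formed the clusters also gave these listings, so the counts are a description and not a test.

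**Figure D1:**
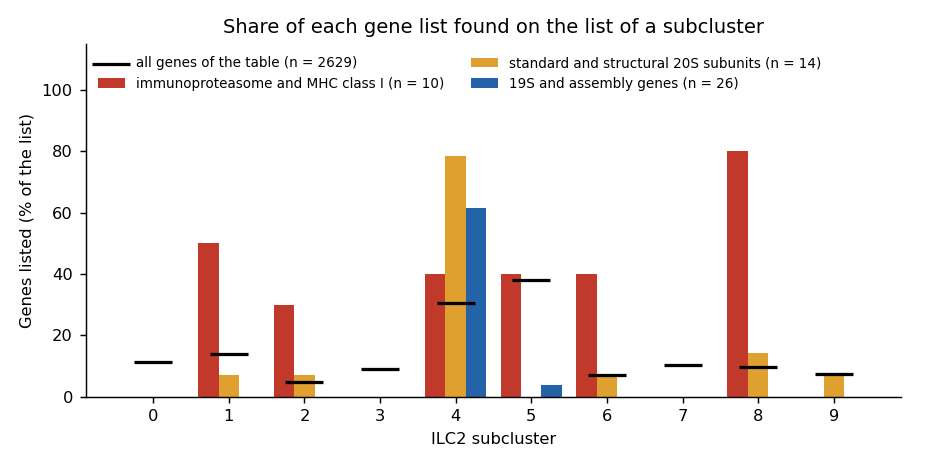
Percentage of each gene list (vertical axis) that was listed for each ILC2 subcluster (horizontal axis), for the 10 immunoproteasome and MHC class I genes, 14 standard and structural subunits of the proteasome barrel and 26 genes of its regulatory particle and assembly. Black marks give the percentage of all 2629 genes; the members peak at 80% in subcluster 8 and the other proteasome genes in subcluster 4.

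*Psmb8* and *Psmb9*, the catalytic subunits encoded on either side of *Tap1*, had identical listings: subclusters 1, 2, 4, 6 and 8. These 5 subclusters together held 52.0% of the ILC2s. *Psmb8* was near its ceiling in the subclusters that listed it. Its share was 98.8% of subcluster 1, 98.7% of subcluster 2, 99.2% of subcluster 4, 99.0% of subcluster 6 and 100% of subcluster 8, against 89.3% to 91.1% of the other ILC2s. Pooled by size, the 5 subclusters that listed *Psmb8* had it in 98.9% of their cells, and the 5 that did not had it in 82.9%.

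*Psmb9* separated the same subclusters more widely. Its share was 80.8% of subcluster 1 (60.5% of the other ILC2s), 84.0% of subcluster 2 (60.2%), 93.5% of subcluster 4 (61.6%), 86.4% of subcluster 6 (63.7%) and 95.5% of subcluster 8 (64.3%). Every listing subcluster was thus above 80%, and subclusters 4 and 8 were the highest. The pooled share was 84.8% in the listing subclusters and 42.6% in the remaining 5, a gap of 42.1 percentage points. That was the widest pooled gap among the 9 listed members. The subclusters were split by listings from these same cells, so a pooled gap is partly set in advance and only describes. On a scale of detection, the log2 ratio of -ln(1 - share) inside to that outside, *Psmb9* stood at 0.83, 0.99, 1.51, 0.98 and 1.59 in subclusters 1, 2, 4, 6 and 8, in this order. This ratio would equal the log2 ratio of mean counts if counts were Poisson and depth per cell equal, and it is no fold change of expression. On it *Psmb8* stood at 0.98, 0.95, 1.04 and 0.94 in subclusters 1, 2, 4 and 6, so the narrow gap in its shares corresponds to values of a similar size.

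*Psmb10*, the remaining catalytic subunit, was listed for subcluster 8 alone, where 92.1% of cells had it against 63.3% of the other ILC2s, a detection log2 ratio of 1.34. Its share in all ILC2s, 63.5%, was close to that of *Psmb9*, 64.5%, and yet *Psmb9* had 5 listings. It was among 73 of the 2629 genes that were listed for subcluster 8 and for no other subcluster.

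The standard counterparts that these subunits replace had other listings. *Psmb5*, the counterpart of *Psmb8*, was listed for subcluster 4 alone, with 96.4% of cells against 70.5%. Its reads are uncertain, since 42.9% of the stretches of 89 bases, the length read from a transcript, in the last 400 bases of its transcripts also occur in *Gm3375*. *Psmb6*, the counterpart of *Psmb9*, was likewise listed there alone, with 94.8% against 68.7%. *Psmb7*, the counterpart of *Psmb10*, was listed for subcluster 9 alone, with 74.1% against 59.4%, a listing that an adjusted p-value under 0.05 would remove. Subcluster 4 was therefore the sole subcluster that listed both an immunoproteasome catalytic subunit and its counterpart. Of the 14 standard and structural barrel subunits, 13 were listed somewhere, 11 of them for subcluster 4, which listed 30.5% of all genes. Subcluster 8 listed *Psma4* (93.3% against 74.2%) and *Psma5* (88.8% against 68.2%), both structural and both removed by that filter, and *Psmb1*, another structural subunit, was listed for subclusters 1, 2 and 6 with 97.5% to 98.6% of cells. Of 26 genes of the regulatory particle and of assembly, 16 were listed for subcluster 4, 1 for subcluster 5 (*Psmg2*) and none for subclusters 1, 2, 6 or 8.

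**Figure D2:**
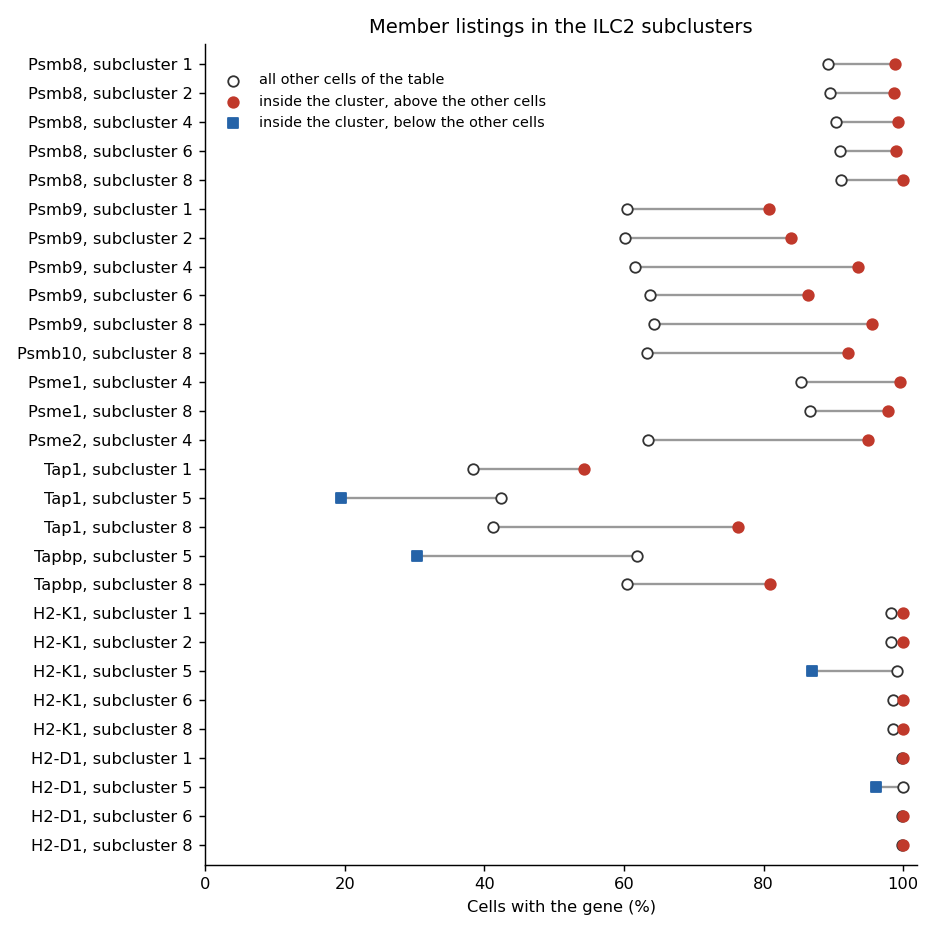
Percentage of cells with the gene (horizontal axis) for the 28 listings of members in the ILC2 subclusters, inside the subcluster (filled) and in all other ILC2s (open). Red circles are above the other cells and the 4 blue squares, all in subcluster 5, are below; *Psmb9* and *Tap1* span wide gaps, while *H2-K1* and *H2-D1* crowd at 100%.

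Subcluster 4 was the subcluster of dividing cells by its listings: it listed 5 of 5 proliferation markers (*Mki67*, *Top2a*, *Stmn1*, *Pclaf* and *Tyms*), in 49.8% to 77.2% of its cells. It held 9.23% ± 0.0113 of the ILC2s. Its 802 listings had a median difference of 34.1 percentage points between inside and outside, and its 4 member listings had a median of 22.8. The high shares of *Psmb8* and *Psme1* outside leave no room for a wider gap, so these medians do not rank the members. The part of the general shift in the member values was not tested. *Top2a* was also listed for subclusters 6 and 8, in 49.0% and 49.4% of cells, without the other 4 markers.

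The PA28 genes were listed for this subcluster. *Psme1*, the alpha subunit, had a share of 99.5% in subcluster 4 against 85.4% outside it (detection log2 ratio 1.46). In subcluster 8 its share was 97.8% against 86.6% (0.93), a listing lost with an adjusted p-value under 0.05. *Psme2*, the beta subunit, was listed for subcluster 4 alone, with 94.9% against 63.5% (1.56). It was the sole listed member that subcluster 8 lacked. Its reads are uncertain too: 48.0% of its end stretches occur also in *Psme2b*, a near-identical gene. For the other 9 members that share was at most 2.65%. *Psme3*, which forms a separate nuclear activator, was listed for subcluster 4 too, with 56.0% against 21.9%.

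Among the peptide loading genes, *Tap1* had the lowest share of any listed member, 41.5% of all ILC2s, and its shares inside lay on both sides of those outside. In subcluster 8 the share was 76.4% against 41.2% of the other ILC2s, and in subcluster 1 it was 54.3% against 38.3%. In subcluster 5 it was 19.5% against 42.4%. The detection log2 ratios were 1.44, 0.70 and -1.35. *Tap1* is read away from *Psmb9* across 225 bases, and both were listed for subclusters 1 and 8. *Psmb9* was listed without *Tap1* for subclusters 2, 4 and 6, and *Tap1* without *Psmb9* for subcluster 5.

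*Tapbp* was found in 60.6% of all ILC2s and listed for subclusters 5 and 8 only. In subcluster 8 the share was 80.9% against 60.5% (0.83), a listing lost with an adjusted p-value under 0.05, and in subcluster 5 it was 30.3% against 61.8% (-1.41). The latter was the lowest ratio among the 19 member listings with a finite one. Their partners had the same division of shares, and every one of these listings had the higher average inside. *Tap2*, the other chain of the pump, was at 79.8% against 60.7% in subcluster 8, lost with that filter, and at 28.7% against 62.1% in subcluster 5. *Tapbpl*, a tapasin-related peptide editor, was at 58.4% against 27.7% in subcluster 8 and at 11.4% against 28.6% in subcluster 5. Of the 8 other loading and trimming genes, 6 were listed, 4 of them for subcluster 5 and 3 for subcluster 8. These subclusters listed 38.0% and 9.62% of all genes, so the count in subcluster 5 is not far from that of any list. The chaperones *Calr* and *Hspa5*, which serve the whole endoplasmic reticulum, were also listed for subcluster 4, in 98.5% and 98.9% of cells.

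**Figure D3:**
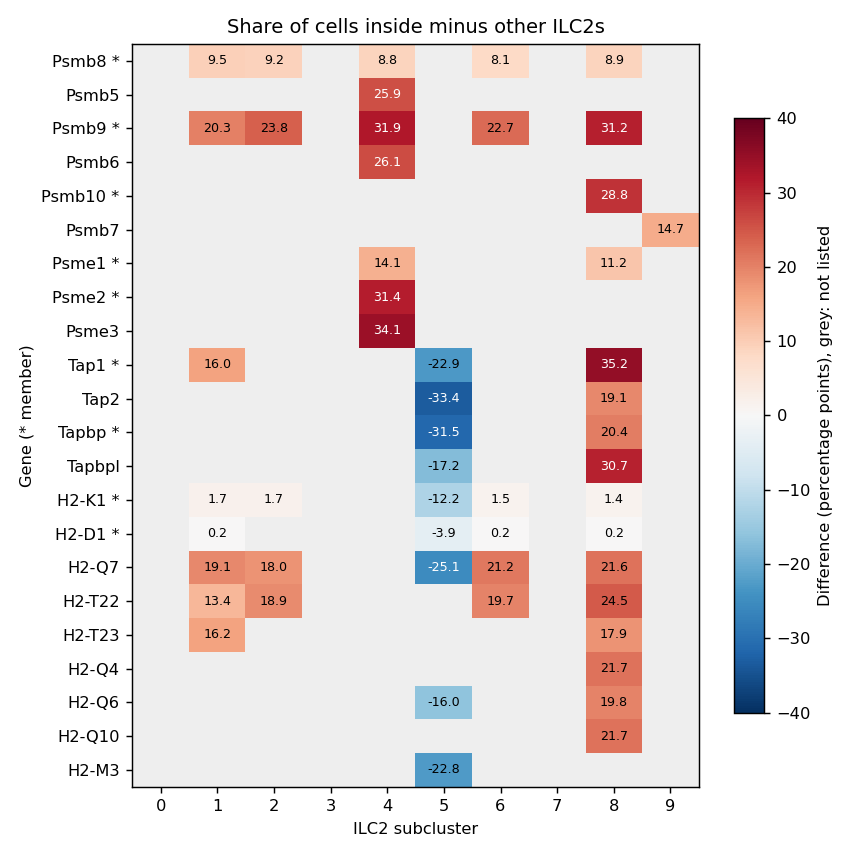
Difference in the percentage of cells with a gene, inside a subcluster minus all other ILC2s in percentage points (colour and printed value), for members (asterisk), their standard counterparts and other class I genes (rows) in each ILC2 subcluster (columns); grey means not listed. Subcluster 5 is negative for each gene it lists here and subcluster 8 positive for each gene it lists here. The sign is that of shares alone, since each listing had the higher average inside.

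The class I heavy chains were found in nearly every ILC2, *H2-K1* in 98.6% and *H2-D1* in 99.8%. Shares this near the ceiling leave little room to separate subclusters, and the listings rest on averages that are not given here. *H2-K1* was listed for subclusters 1, 2, 6 and 8, with 100% of cells (as rounded to 3 decimals of the fraction) in each against 98.3% to 98.6% of the other ILC2s. *H2-D1* was listed for subclusters 1, 6 and 8, again with 100% in each against 99.8%. Subcluster 5 was the exception for both: 86.9% of its cells had *H2-K1* against 99.1% of the other ILC2s, and 96.1% had *H2-D1* against 100%. Both listings of subcluster 5 were lost with an adjusted p-value under 0.05. *B2m*, the light chain that pairs with each of them, was on no list of either table. It was therefore not shown to be unchanged, since a gene absent from a list may be lower, alike, or not tested there.

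The class I genes are a family of close relatives. BALB/c mice carry the H-2d haplotype, whereas the reference genome comes from C57BL/6J mice of the H-2b haplotype, and the *H2-L* gene of BALB/c is lacking from that reference. Reads of the heavy chain genes may therefore have been lost or assigned to a relative, and the part of this in their shares was not tested. Within the reference, 0.265% of the 89-base stretches at the ends of *H2-K1* transcripts, and none of those of *H2-D1*, occurred in another gene.

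Other class I and class Ib genes, which encode relatives of the heavy chains with more specialised roles, were found in fewer cells. Of 16 genes, 7 were listed, 6 for subcluster 8, 3 each for subclusters 1 and 5, and 2 each for subclusters 2 and 6. Of all genes, subclusters 8, 1, 5, 2 and 6 listed 9.62%, 13.8%, 38.0%, 4.98% and 7.23%. *H2-Q7* had a share of 92.7% of subcluster 1 (73.6% of the other ILC2s), 92.2% of subcluster 2 (74.2%), 97.9% of subcluster 6 (76.7%) and 98.9% of subcluster 8 (77.3%). In subcluster 5 it was found in 53.3% (78.4%), which an adjusted p-value under 0.05 would remove. These are the 5 subclusters of *H2-K1*, with gaps of 18.0 to 25.1 percentage points where *H2-K1* had at most 12.2. *H2-T22* was listed for subclusters 1, 2, 6 and 8, in 62.8%, 67.5%, 71.1% and 76.4% of cells, against 48.6% to 51.9% outside. *H2-T23*, whose product presents peptides to NK cell receptors, was listed for subclusters 1 (91.8% against 75.6%) and 8 (96.6% against 78.7%). *H2-T22* shares 34.1% of its end stretches with *H2-T10*, and *H2-Q6*, listed for subclusters 5 and 8, shares 32.5% with several relatives, while *H2-T23* shares 16.3% with other genes, so the values of these genes are uncertain.

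For the 4 members that subclusters 8 and 5 both listed, shares inside lay above those outside in subcluster 8 and below them in subcluster 5. The averages inside were the higher ones in both, so the shares do not show these genes lowered in subcluster 5. Of the 4, *Tap1* alone stays listed for both with an adjusted p-value under 0.05, and *H2-D1* differed by 0.2 percentage points in subcluster 8. Subcluster 8 was small, at 0.668% of the ILC2s, so its shares rest on few cells. Its 253 listings were all higher inside, with a median difference of 18.9 percentage points, and its 8 member listings had a median of 15.8. The interferon response is a programme that induces immunoproteasome and class I genes, and its part in the member values was not tested. Of its 32 genes counted here, 19 were listed for subcluster 8, which listed 9.62% of all genes, and at most 2 for any other subcluster. *Ifi47*, an interferon-induced GTPase, was found in 59.6% of its cells against 30.9%, and *Gbp7*, a guanylate binding protein, in 76.4% against 49.6%. *Irf2*, an interferon regulatory factor, was found in 78.7% against 62.7%, a listing lost with an adjusted p-value under 0.05. *Nlrc5*, the class I transactivator, was not listed for any subcluster. Subcluster 8 listed 3 of 11 ILC2 markers (*Areg*, *Il13* and *Klrg1*), none of 6 T cell markers, and *Pecam1* among 3 endothelial markers, in 49.4% of its cells. *Pecam1* was also listed for subclusters 1 and 5, in 38.1% and 8.6% of cells.

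Subcluster 5 held 3.87% ± 0.00964 of the ILC2s. Of its 1000 listings, 978 had a lower share of cells inside, with a median difference of -21.3 percentage points, and its 4 member listings had a median of -17.6. All had the higher average inside. The differences of *Tapbp* (-31.5) and *Tap1* (-22.9) lay below the median over all its listings, and those of *H2-K1* (-12.2) and *H2-D1* (-3.9), near 100% of the other ILC2s, lay above it. Subcluster 5 listed 3 of 6 T cell markers (*Cd3e*, *Cd3g* and *Trdc*, in 25.6% to 39.5% of cells) and none of the 11 ILC2 markers. The comparison is with other ILC2s, so an unlisted marker is not shown to be absent. *Gata3*, for one, was in 88.6% of the cells of the subclusters that did not list it, pooled. T cell markers were also listed elsewhere, *Cd3g* and *Trbc2* for subcluster 6 (46.1% and 88.0% of cells) and *Trbc2* for subclusters 1 and 2 (86.1% and 87.2%), which listed members with higher shares inside. The part of other cells in the member values of these subclusters was not tested.

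**Figure D4:**
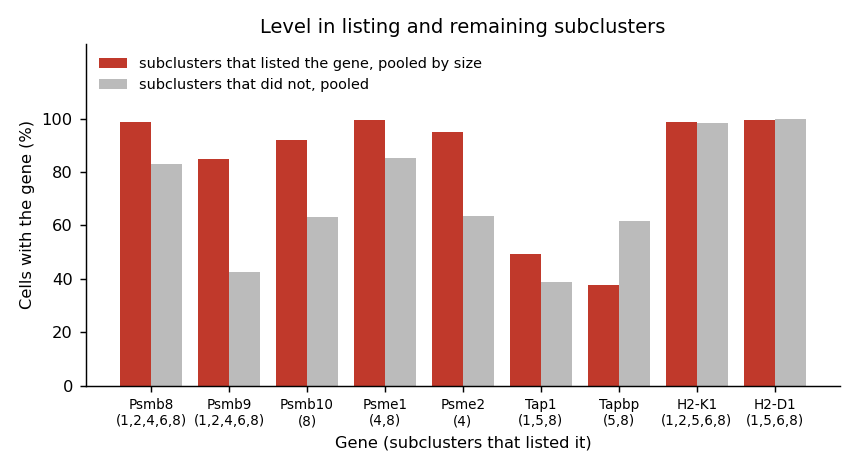
Percentage of cells with each listed member (vertical axis), pooled by solved size over the ILC2 subclusters that listed it (red, numbers in parentheses) and over those that did not (grey). *Psmb9* has the widest gap, 84.8% against 42.6%, and the pooled *Tapbp* value, 37.7% against 61.7%, mixes the larger subcluster 5 at 30.3% with the smaller subcluster 8 at 80.9%. The listings that split the subclusters come from the same cells, so the gaps are no test.

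Listings in many subclusters were rare in this table. Of the 2629 genes, 1861 (70.8%) were listed for 1 subcluster and 20 for at least 5, and *Psmb8*, *Psmb9* and *H2-K1* were among these 20. By the Jaccard index of listing subclusters over the 10 subclusters, the genes most like *Psmb8* and *Psmb9*, apart from each other, were *Ctla4*, *Impa2*, *Prelid1*, *Sec61b* and *Sec61g*, each at 1. The nearest gene to *H2-K1* was *H2-Q7* at 1, followed by *Gimap7* at 0.833. *H2-D1* shared its pattern with no gene and was nearest to *H2-K1* and *H2-Q7* at 0.8. For *Tap1*, 10 genes had the same 3 subclusters, among them *Ifi203*, *Itgb1* and *Myh9*.

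Across the 19 member listings with shares below 100% on both sides, the detection log2 ratio had a median of 0.98 and ran from -1.41 to 1.59, with 16 above 0. The remaining 9 listings, 8 of the heavy chains and that of *Psmb8* in subcluster 8, had a share of 100% on one side and no finite ratio. A gene was listed only where its average inside was the higher one. The median and the number of ratios above 0 are therefore partly set in advance and only describe the listings. The ratios below 0 were those of *Tap1*, *Tapbp* and *H2-K1* in subcluster 5.

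In the cell type table the members could hardly be compared. *Psmb9* was the sole member listed, for 5 of the 21 types. The table rested on 2000 tested features, so the other 9 members may not have been among them. *Psmb9* was found in 98.4% of the cells of the type spelled Prolifelation cell, against 72.7% of all other cells. It was found in 82.5% of CD8_Naive cells against 74.1%, and in 76.4% of CD8_Effector cells against 74.3%. In CD4 and gdT_Naive cells its share was the lower one, 70.8% against 74.5% and 70.4% against 74.6%, although its average was the higher one. These types listed 30.6%, 11.8%, 5.60%, 7.80% and 8.87% of all 1679 genes, in the order named. The dividing cells had the widest gap, 25.7 percentage points, near the most that its share outside allows. The median over all 513 listings of that type was 36, and the part of this general shift in the value was not tested. The other 4 types lay within 8.4 percentage points of the remaining cells. *Psmb9* was in 74.3% of all cells and in 72.6% of the cells of the 16 types that did not list it, the ILC2 type included.

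**Figure D5:**
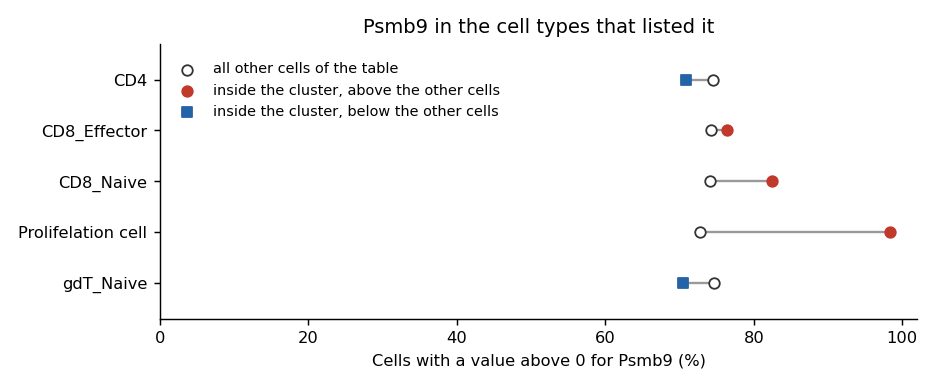
Percentage of cells with a value above 0 for *Psmb9* (horizontal axis) in the 5 cell types that listed it, inside the type (filled) and in all other sorted cells (open). Only the dividing cells, at 98.4% against 72.7%, are far from the rest; blue squares mark the types where the share inside is the lower one.

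Shares in the cell type table are not on the scale of those in the subcluster table. *Cd3e*, a part of the T cell receptor complex that the sort selected against, was above 0 in 83.5% of all cells of the cell type table and in 5.76% of the ILC2s of the subcluster table. The values from which the first table was made were not stated. The share of *Psmb9* in it therefore does not give the share of cells that contain *Psmb9* transcripts.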

How the data were processed

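Single cells sorted as ILC2s from 4 groups (1 library each) were sequenced by the authors from transcript 3′ ends, aligned with Cell Ranger to mm10 per the labels, and clustered in Seurat. Per the study's methods, flow cytometry served to remove dead cells and doublets, and cells with few detected genes were left out; no doublet caller was run here on tables without cells. The deposited tables list cluster markers over all libraries pooled. Their share columns, used here, are deposited as a fraction of cells with a value above 0, to 3 decimals, and are printed as percentages. Their fold change and p-value columns hold the authors' own comparisons and are not reported. The deposited p-values, adjusted for 2000 features (cell type table) or a median of 14354 (ILC2 subclusters), served only as a filter at 0.05. Both tables held 0 listings with a negative fold change. The tables give no depth, number of cells or value per library, so no test, interval or standard deviation was computed. The assay behind the cell type table was not stated.

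Cluster sizes were solved by least squares, using genes with listings in 2 or more clusters, since the share outside plus the size times the difference of shares equals the share in all cells. Errors are the fit's standard errors. On simulated data the largest error was 0.0436 percentage points over 1679 genes and 0.0384 over 2629. Promoter windows and gene positions came from RefSeq (GRCm38.p6) and matched all 10 members. Stretches of 89 bases in the last 400 bases of transcripts were compared between genes of GENCODE M21. The kB motif is a reverse palindrome in part, so matches at neighbouring bases overlap. Python 3.11.15, NumPy 2.4.6, pandas 2.3.3 and matplotlib 3.10.9 were used.

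All members were named. Of companion lists, the genes listed for the most clusters of the comparison described (at most 4 each) were given values. The counterparts *Psmb5*, *Psmb6* and *Psmb7* and, among equals, the genes shown were chosen after their values were seen. The genes of most similar listings were those with the highest Jaccard index, for members listed for at least 3 subclusters. The members and lists were chosen with earlier results of these data known. Alternatives were stricter listing rules, clusters left out, other size fits and another ratio scale. One regulator of the companion lists is not reported here.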

Additional observations from a re-analysis of the deposited data

How the results depend on the processing

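No paired analysis was possible because all 4 libraries were pooled in the tables, with 1 library to a group. Of 55 alternative values, 44 kept their reading and 11 moved. When a listing had to have a share inside at least 10 percentage points above that outside, the member listings went from 28 to 12 in the ILC2 subcluster table and from 5 to 1 in the cell type table. Subclusters 1, 2, 5, 6 and 8 then listed 2, 1, 0, 1 and 5 members; *H2-K1* and *H2-D1*, already found in nearly all other ILC2s in each of their listings, cannot meet that rule. When the share inside had to be above that outside, 3 listings were left in the cell type table, 24 in the subcluster table and 0 in subcluster 5. With an adjusted p-value under 0.05, 24 listings were left in the subcluster table and 2 of the 4 in subcluster 5. Without subcluster 5 the table held 24 member listings, and without the small subclusters 7, 8 and 9 it held 20. A difference of log2 odds in place of the detection ratio moved the median from 0.98 to 2.76, because shares near 100% have large odds. Under other size fits, 20 recomputed shares of members in the clusters that did not list them moved by at most 0.0660 percentage points. The tables give neither depth nor cell numbers, so the precision of shares in small subclusters is not given here.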

Other observations

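MHC class II genes, whose products present peptides from outside the cell and which ILC2s can carry, were listed for subclusters that also listed members. Of 8 class II genes, 2 were listed for an ILC2 subcluster. *H2-Ab1*, the beta chain of the I-A molecule, had a share of 42.1% in subcluster 4 against 22.1% outside it. *H2-DMa*, which loads class II molecules, had one of 37.1% in subcluster 8 against 25.1%, a listing lost with an adjusted p-value under 0.05. In the cell type table *H2-Ab1* was found in 88.3% of Macrophage cells against 31.1% of all other cells and in 92.8% of Endothelium cells against 33.3%. In Macrophage cells *H2-Eb1* was found in 85.1% against 21.8%, and *H2-Aa* in 88.2% against 24.2%. No member was listed for either type, from which nothing is read, since members other than *Psmb9* have no row in that table. The limit on the scale of shares in that table holds here as well.

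Interferon response genes listed outside subcluster 8 were few. *Ifi47* had a share of 61.2% in subcluster 4 against 28.0%, above its 59.6% in subcluster 8. In subcluster 5 it had one of 18.2% against 31.6%, a listing lost with an adjusted p-value under 0.05. *Samhd1*, a nucleotide hydrolase that limits viral replication, was found in 97.8% of subcluster 8 against 88.2%, in 89.5% of subcluster 3 against 88.0%, and in 87.5% of subcluster 0 against 88.5%. *Socs1*, an inhibitor of interferon signalling, was not listed for subcluster 8. Its share was 50.5% in subcluster 7 against 31.8% and 35.9% in subcluster 0 against 30.6%, both subclusters without any listed member of the immunoproteasome and class I genes, and 15.3% against 32.7% in subcluster 5, which listed 4 members.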
